A study of Mus musculus with 4 samples.

Results

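A set of 10 genes of the transforming growth factor beta (TGF-β) pathway was followed in γδ T cells of mouse fat: the ligand genes Tgfb1 and Tgfb3, the receptor genes Tgfbr1, Tgfbr2 and Tgfbr3, the SMAD genes Smad2, Smad3, Smad4 and Smad7, and the corepressor gene Ski. They were found by symbol in the deposited tables, where a row counted if its comma-separated symbols held a member and overlapping rows of 1 symbol were added up. All 10 members had a row, among 44876 named genes in all. The source was epididymal fat of male C57Bl/6 mice, 16 to 22 weeks of age, whose GFP reporter marks expression of PLZF, a transcription factor encoded by Zbtb16. The PLZF+ cells expressed the reporter (2 libraries, A7 and B7) and the PLZF- cells did not (2 libraries, A6 and B6). All libraries come from the same reporter strain, no treatment is named, and each library pools 10 mice, so that single animals cannot be followed; the libraries are called pools below. Library names are the codes in the column names, and the labels do not say what the codes stand for or whether a PLZF+ and a PLZF- pool shared mice. The title of the study concerns γδ T cells that make IL-17A.

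TGF-β is secreted as a latent complex and must be set free before it binds. The free ligand brings together a type II receptor (TGFBR2) and a type I receptor (TGFBR1), both of them kinases, while the type III receptor (TGFBR3, betaglycan) has no kinase and presents ligand. The type I receptor phosphorylates SMAD2 and SMAD3, which join SMAD4 and enter the nucleus, where SKI holds the complex in check. SMAD7 is induced by the pathway and blocks the receptor. In mice TGF-β takes part in the development of IL-17-producing T cells, and TGF-β3 is known as a product of IL-17-producing T helper cells.

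The sort was first checked on its own gene. Zbtb16 had 2899 and 2921 normalized counts in the PLZF+ pools and 310 and 699 in the PLZF- pools, which checks the labels and is no finding. Estimated depth without the rRNA precursor Rn45s was 1790809 and 1969711 reads in the PLZF+ pools and 722443 and 950739 in the PLZF- pools, so low genes are measured more coarsely in PLZF- cells. A normalized count is the authors' estimated read count after division by a factor for each library. The γδ receptor locus that holds Trdd2 and Trdv5 had 2630 and 2525 normalized counts in the PLZF+ pools and 656 and 844 in the PLZF- pools. The CD3 chain genes, which define T cells, were present everywhere, and all 4 were higher in PLZF+ cells (summed normalized counts of 2371 and 2592 against 761 and 1197). Of the 11 listed symbols of γδ T cell markers only these 4 were found, and the row of Trdd2 and Trdv5 is given besides them. Many, but not all, listed markers of other cells were lower in PLZF+ cells. For group 2 innate lymphoid cells 6 of 7 tested markers passed as lower, and for natural killer cells 6 of 6. The other innate lymphoid marker, Il2ra, was higher in both PLZF+ pools (647 and 524 against 413 and 499) and did not pass. For plasmacytoid dendritic cells 4 of 5 did and for dendritic cells 3 of 7, against 4.74% of all tested genes. Summed over each list, the PLZF+ pools had 720 to 940 normalized counts of the innate lymphoid markers, 22.3 to 58.8 of the natural killer markers, 35.9 to 55.8 of the plasmacytoid markers and 33.5 to 170 of the dendritic cell markers, against 3558 to 4619, 2007 to 2210, 465 to 828 and 617 to 1420.5 in the PLZF- pools. Klre1, Eomes and the locus of Klra8, of the natural killer list, and Siglech, Cd209d, Klk1 and Ly6d, of the plasmacytoid list, were at 0 in both PLZF+ pools. The 5 fibroblast markers were at 0 in all libraries, and the 4 platelet markers summed to 0 and 0.558 in the PLZF+ pools and to 0 in both PLZF- pools. Macrophage markers summed to 1.24 and 0.558 in the PLZF+ pools and 20.2 and 32.9 in the PLZF- pools, with Mrc1, C1qa, C1qb, C1qc and Fcgr1 at 0 in all of them. Some markers of other lists were higher in PLZF+ cells, but did not pass. The row of Trac, an αβ T cell marker, had 92.3 and 89.8 against 67.5 and 35.4 in the PLZF- pools. It has the same span on chromosome 14 as the row of Trdd2 and Trdv5, so the γδ and αβ rows are not cleanly separate. Pecam1, of the endothelial list, had 160 and 153 against 99.5 and 115. In the B cell list Cd79b had 33.4 and 29.6 against 1.69 and 7.32, while Jchain passed as lower (0 and 0 against 584 and 257).

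All 10 members reached the filter, a mean of at least 10 normalized counts over the 4 libraries. Of the 10, 1 rose in PLZF+ cells, Tgfb3, and 9 did not pass the test, limma with p-values adjusted by Benjamini-Hochberg over the 8958 tested genes at a threshold of 0.05. Over all tested genes 7.29% passed (228 higher, or 2.55%, and 425 lower, or 4.74%), so 1 of 10 is near that share. Without adjustment, 1 member had a p under 0.05 as higher and 1 as lower, against 8.39% and 11.7% of all tested genes, which are like shares. By voom, a weighted form of limma, 0 members passed, against 7.31% of all tested genes. For 5 members both libraries of 1 subset lay beyond both of the other, against 51.1% of all tested genes, a like share. The median log2 fold change of the members was 0.23, beside -0.02 for all tested genes.

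**Figure D1:**
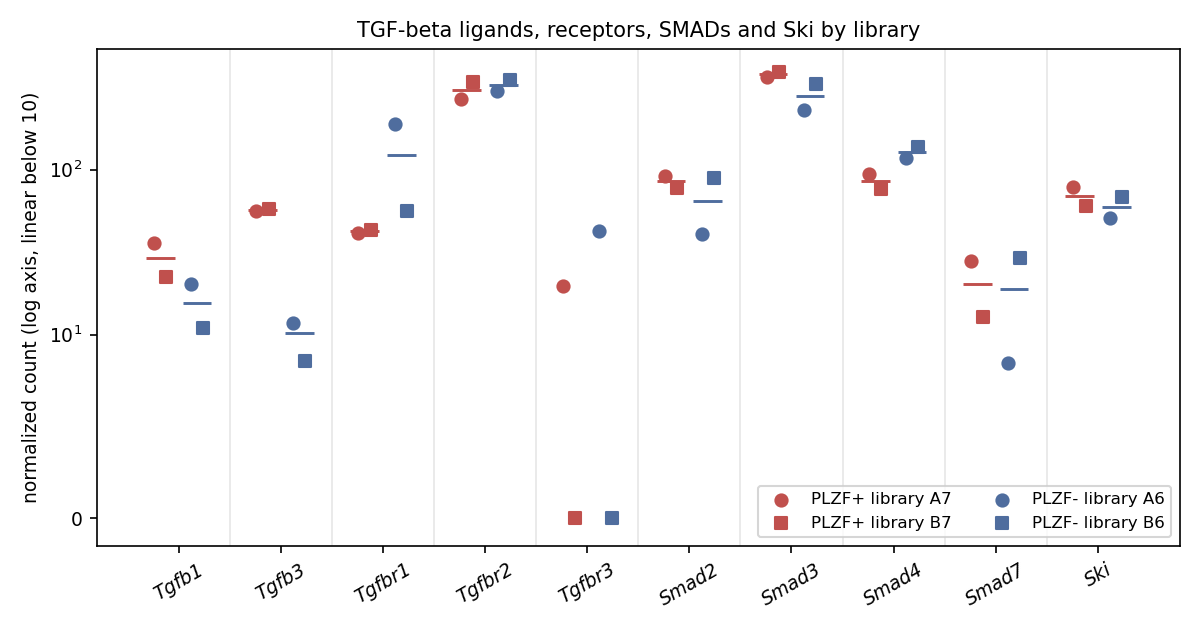
Normalized counts of the 10 members (y axis, log scale, linear below 10) in each library, with the PLZF+ pools in red and the PLZF- pools in blue. Circles are libraries with a code letter A and squares those with a B. Short lines are means of 2 libraries, left out for Tgfbr3. Tgfb3 shows the PLZF+ pools at 56.4 and 58.0, above the PLZF- pools at 11.8 and 8.54, while Tgfbr3 is at 0 in both B libraries.

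Tgfb3, which encodes the ligand TGF-β3, was the member that rose. It had 56.4 and 58.0 normalized counts in PLZF+ pools A7 and B7, against 11.8 and 8.54 in PLZF- pools A6 and B6. The subsets did not overlap, and the libraries of each subset lay close together. The means were 57.2 ± 1.18 in PLZF+ and 10.2 ± 2.31 in the PLZF- pools (SD, n = 2 each), a ratio of 5.62. On the log2 scale the difference was 2.40 ± 0.62 (SE, 95% interval 1.05 to 3.74, adjusted p = 0.033, limma on log2(normalized count + 1)). About 91 and 104 reads stood behind the PLZF+ values and 7 and 7 behind the PLZF- values. In bulk samples, fewer cells of a type and less RNA per cell cannot be told apart. The summed CD3 chain genes, which rose as well, had a ratio of 2.53 between the subsets, and their part in the result was not tested.

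The call of Tgfb3 was lost when either PLZF+ pool was left out, although its log2 fold change hardly moved. Its standard error rose from 0.62 to 0.96 without A7 and 0.95 without B7, since a lone PLZF+ library then remained. Far fewer of all tested genes passed as higher in those fits too, as given below. The loss is therefore not particular to Tgfb3. The adjusted p was 0.33 without A7 and 0.35 without B7, at log2 fold changes of 2.42 and 2.38, while without PLZF- library A6 or B6 it was 0.025 and 0.046 (2.72% and 4.97% of genes passed as higher there). With the column letter as a term it was 0.0080 (4.64% passed as higher). It was also lost without the filter (adjusted p = 0.086), without the trend and robust steps of limma (0.065), in the FPKM table (0.11) and by voom (0.20). The authors' deposited table gives a p-value of 0.0267 and a q-value of 0.22 for the locus, and no member locus of that table had a q-value under 0.05, against 5.73% of the loci it tested. Across the 15 alternatives that gave a value, the log2 fold change stayed between 2.12 and 2.61.

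Tgfb3 lies on the minus strand of chromosome 12 (86056745 to 86079041, mm10). Its end overlaps that of Ttll5, a tubulin glutamylase gene on the other strand, by 5149 bases, and without a stated strand setting reads in the overlap cannot be told apart. Ttll5 had 32.8 and 29.6 normalized counts in the PLZF+ pools and 32.1 and 22.0 in the PLZF- pools, so its subsets overlapped (log2 fold change 0.22 ± 0.59, adjusted p = 0.87, limma).

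Tgfb1, on the plus strand of chromosome 7 (25687002 to 25705077), encodes TGF-β1, the main isoform of the immune system. It had 35.9 and 22.3 normalized counts in PLZF+ pools A7 and B7 and 20.2 and 11 in PLZF- pools A6 and B6. The subsets did not overlap, but the gap between B7 and A6 was small beside the gap within each subset. Between the subsets the log2 fold change was 0.88 ± 0.70 (95% interval -0.63 to 2.39, adjusted p = 0.52, limma), so the data allow anything between a modest fall and a 5.23-fold rise. In either subset the library with the letter A had the higher value. No more than 58 reads stood behind any of these values, and 12 and 9 behind those of the PLZF- pools.

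Per transcript length, Tgfb1 was the more abundant ligand in 3 of 4 libraries. Tgfb1 had 21.8 and 10.3 FPKM (fragments per kilobase of transcript, scaled to depth) in the PLZF+ pools and 13.1 and 4.94 FPKM in the PLZF- pools. Tgfb3 had 11.9 and 10.6 FPKM in the PLZF+ pools and 2.11 and 1.53 FPKM in the PLZF- pools. Tgfb3 thus made up 35.3% and 50.8% of the summed ligand FPKM in PLZF+ pools A7 and B7, against 13.9% and 23.7% in PLZF- pools A6 and B6. The shares did not overlap between the subsets. This is a description and was not tested, since the difference of Tgfb3 itself enters it. The FPKM of Tgfb1 also depends on how the authors' tools assigned reads to transcripts: 1 FPKM stood for 1.65 and 2.17 normalized counts in PLZF+ pools A7 and B7 and for 1.55 and 2.22 in PLZF- pools A6 and B6. The sum of both ligands was 33.7 and 20.9 FPKM in the PLZF+ pools and 15.2 and 6.47 FPKM in the PLZF- pools. The third ligand gene, Tgfb2, was listed at 0 in all 4 libraries.

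**Figure D2:**
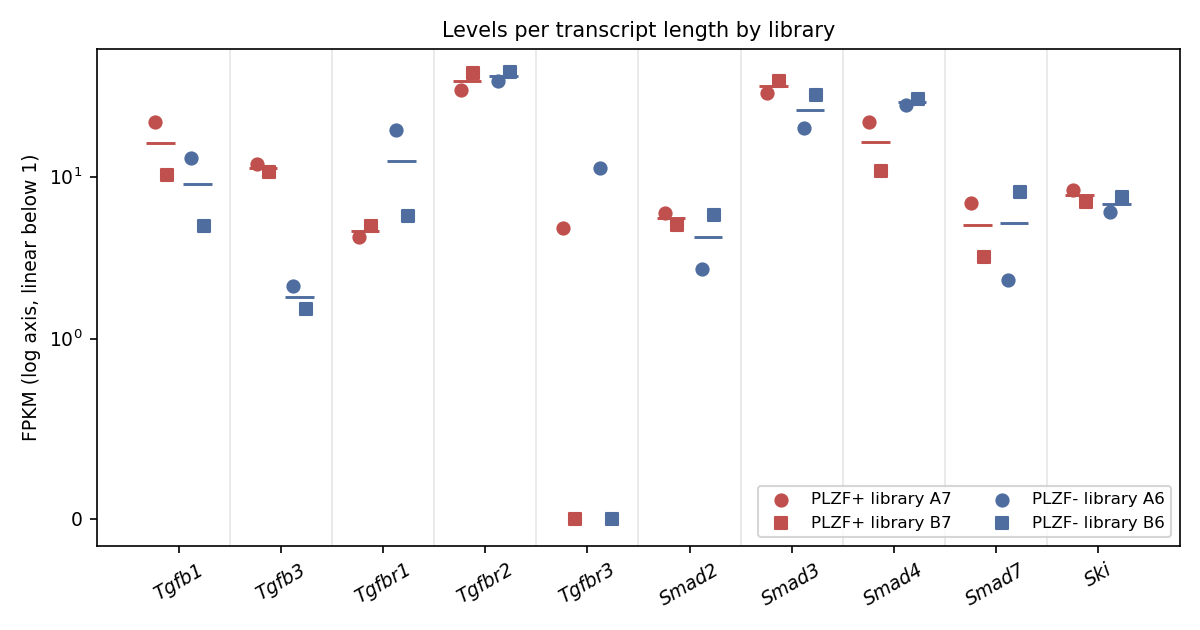
Levels of the 10 members per transcript length in FPKM (y axis, log scale, linear below 1) in each library, with the PLZF+ pools in red and the PLZF- pools in blue. Circles are libraries with the letter A, squares those with a B, and short lines are means of 2 libraries, left out for Tgfbr3. Tgfbr2 has the highest mean in both subsets, 39.0 FPKM in PLZF+ and 41.7 FPKM in the PLZF- pools, and the value of Smad4 is the sum of 2 rows.

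Tgfbr2, the type II receptor that binds ligand, was the member with the highest level per length in both subsets, at 34.4 and 43.7 FPKM in the PLZF+ pools and 38.8 and 44.6 FPKM in the PLZF- pools. In normalized counts it had 269 and 336.5 in PLZF+ pools A7 and B7 and 300.3 and 346 in PLZF- pools A6 and B6. The libraries of the 2 subsets interleaved. The fitted log2 fold change was -0.10 ± 0.24 (95% interval -0.63 to 0.43, adjusted p = 0.86, limma). As a ratio of PLZF+ to PLZF- that interval runs from 0.648 to 1.34, so it allows a fall as well as a rise. The log2 fold change was 0.01 with equal library totals, so it had no stable sign. Of the members Tgfbr2 was the one with the narrowest interval, with 178 to 603 reads per library.

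The 250 bases before the start of Tgfbr2 are shown because this gene had the highest level of the members. The window is on mm10 (GRCm38.p6) at chr9:116175364-116175613, minus strand, from RefSeq. Capitals mark the SMAD box CAGAC, the short element that SMAD3 and SMAD4 bind, searched on both strands.
Tgfbr2: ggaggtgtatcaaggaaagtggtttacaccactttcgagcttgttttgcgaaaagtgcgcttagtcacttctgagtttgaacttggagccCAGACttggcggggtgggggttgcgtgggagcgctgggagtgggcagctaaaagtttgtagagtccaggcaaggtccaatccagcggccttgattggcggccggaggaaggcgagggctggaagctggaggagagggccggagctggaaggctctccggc
The box occurs once here, starting at position -160 from the start site. Such a match is common, since 42.2% of the 32851 mouse promoter windows of this length hold at least 1. The windows of Tgfb1, Smad3 and Ski and the upstream window of Tgfbr1 held none, its second window held 1, and the palindrome GTCTAGAC, searched likewise, was in none of the members' windows and in 0.167% of all windows. Tgfb3 and Tgfbr3 have no window in the table, and those of Smad2, Smad4 and Smad7 were not searched.

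Tgfbr1, the type I receptor kinase on the plus strand of chromosome 4 (47353222 to 47414931), had 41.5 and 43.0 normalized counts in PLZF+ pools A7 and B7, against 189 and 56.1 in PLZF- pools A6 and B6. Both PLZF+ pools were lower than both PLZF- pools, but PLZF- library B6 lay much nearer to the PLZF+ pools than to A6. Its log2 fold change was -1.27 ± 0.54 (95% interval -2.43 to -0.11, adjusted p = 0.20, limma). Library A6 decided its size: without A6 the log2 fold change was -0.40 (adjusted p = 0.74), and without B6 it was -2.14 and passed as lower (adjusted p = 0.016, where 4.66% of genes passed as lower). With the column letter as a term it passed as well (adjusted p = 0.046, where 7.18% of genes passed as lower). The authors' deposited table gives this locus a p-value of 0.00815 and a q-value of 0.0997. Per length, Tgfbr1 had 4.23 and 4.98 FPKM in the PLZF+ pools and 19.4 and 5.75 FPKM in the PLZF- pools. As a share of the summed FPKM of Tgfbr1 and Tgfbr2 it made up 11% and 10.2% in the PLZF+ pools and 33.3% and 11.4% in the PLZF- pools, so that library A6 stood apart from the other three.

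Tgfbr3, betaglycan (chromosome 5, 107106570 to 107289629), split the libraries by column letter and not by subset. It had 19.8 normalized counts in PLZF+ library A7 but 0 in PLZF+ library B7, and 42.2 in PLZF- library A6 but 0 in PLZF- library B6. About 32 reads stood behind the value of A7 and 25 behind that of A6. The rRNA precursor took 27.4% to 33.9% of the total in 3 libraries and was listed at 0 in B7. Whether a zero of Tgfbr3 is a failed estimate or an absence of reads was not tested. Between the subsets the log2 fold change was -0.53 ± 2.14 (95% interval -5.15 to 4.10, adjusted p = 0.92, limma), which leaves the direction undetermined.

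**Figure D3:**
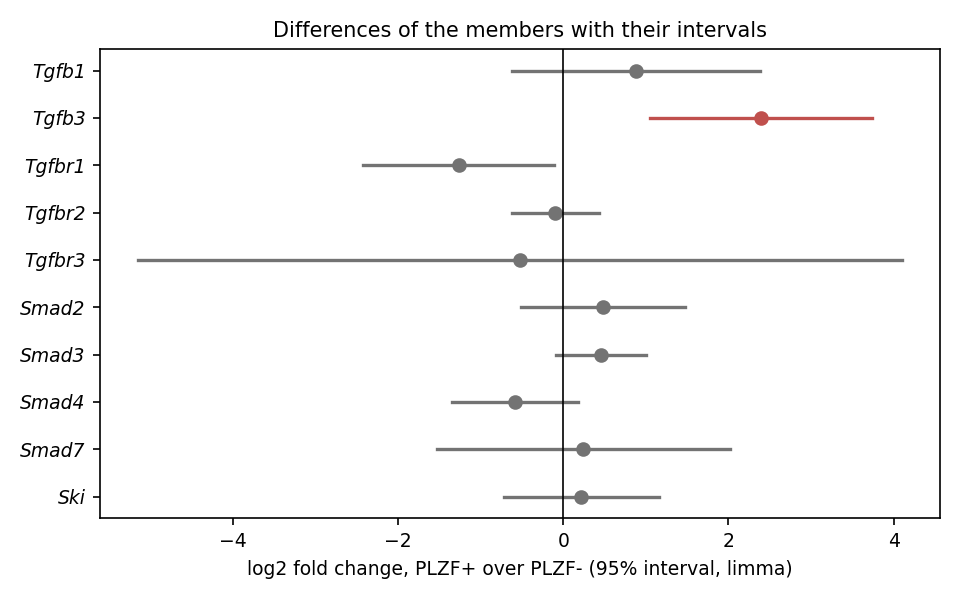
Log2 fold change of each member, PLZF+ over PLZF- (x axis), as a point with its 95% interval from limma. Tgfb3 (red, 2.40) passed at an adjusted p under 0.05; the 9 members in grey did not. The interval of Tgfbr2 is the narrowest (-0.63 to 0.43) and that of Tgfbr3 the widest (-5.15 to 4.10).

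Smad3, one of the receptor-activated SMADs (chromosome 9, 63646767 to 63757994, minus strand), had 365 and 392 normalized counts in PLZF+ pools A7 and B7, against 230.5 and 329 in PLZF- pools A6 and B6. Both PLZF+ pools were above both PLZF- pools. On the log2 scale the difference was 0.46 ± 0.25 (95% interval -0.09 to 1.0, adjusted p = 0.34, limma), so a rise of up to 2.0-fold is allowed and none is shown. It was 0.20 without A6 and 0.71 without B6 (adjusted p = 0.71 and 0.098). The deposited row also names AK214683, a transcript whose reads cannot be separated from those of Smad3. Aagab, whose locus overlaps the deposited one, had 108 and 149 normalized counts in the PLZF+ pools and 47.9 and 131 in the PLZF- pools.

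Smad2, its close relative (chromosome 18), had 91.7 and 77.6 normalized counts in the PLZF+ pools and 40.5 and 89.0 in the PLZF- pools. The subsets overlapped, because PLZF- library B6 lay between the PLZF+ pools and A6 below them. Between the subsets the log2 fold change was 0.48 ± 0.46 (95% interval -0.51 to 1.47, adjusted p = 0.61, limma), and it was -0.08 without A6. Per length, Smad3 was the major receptor-activated SMAD transcript in every library. It made up 84.6% and 88.6% of the summed FPKM of Smad2 and Smad3 in the PLZF+ pools and 88.2% and 84.6% in the PLZF- pools. These shares covered the same range in both subsets.

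Smad4, the shared partner of the activated SMADs (chromosome 18), had 94.1 and 76.5 normalized counts in PLZF+ pools A7 and B7, against 118 and 138 in PLZF- pools A6 and B6. Both PLZF+ pools were below both PLZF- pools. The means were 85.3 ± 12.5 in PLZF+ and 128 ± 13.9 in the PLZF- pools (SD, n = 2 each), and the log2 fold change was -0.58 ± 0.35 (95% interval -1.35 to 0.18, adjusted p = 0.39, limma). The value adds 2 rows of the same symbol. The larger row had 76.8 and 75.3 normalized counts in the PLZF+ pools and 94.5 and 112 in the PLZF- pools, and the smaller had 17.3 and 1.12 in the PLZF+ pools and 23.6 and 25.6 in the PLZF- pools. With the larger row alone the log2 fold change was -0.43 (adjusted p = 0.57).

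Smad7, the inhibitory SMAD that the pathway itself induces (chromosome 18), had 27.9 and 12.8 normalized counts in PLZF+ pools A7 and B7 and 8.44 and 29.3 in PLZF- pools A6 and B6. The PLZF- pools lay on either side of the PLZF+ pools, 3.47-fold apart from each other. The fitted log2 fold change was 0.24 ± 0.82 (95% interval -1.53 to 2.02, adjusted p = 0.90, limma). Its sign changed with single libraries, to -0.29 without A7 and -0.60 without A6. Only 5 reads stood behind the value of A6.

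Ski, the corepressor that binds SMAD complexes (chromosome 4, 155154075 to 155222592, minus strand), had 78.7 and 59.7 normalized counts in the PLZF+ pools and 50.6 and 68.3 in the PLZF- pools. The subsets interleaved. Its log2 fold change was 0.22 ± 0.43 (95% interval -0.72 to 1.16, adjusted p = 0.82, limma).

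By mean level per length, the members ranked in the PLZF+ pools with Tgfbr2 at the top (39.0 ± 6.57 FPKM) and Smad3 next (36.1 ± 4.42 FPKM), a difference within their spread. Smad4 followed at 16.3 ± 7.85 FPKM and Tgfb1 at 16.1 ± 8.16 FPKM, also inside their spread, and then Tgfb3 at 11.3 ± 0.907 FPKM. Ski (7.67 FPKM), Smad2 (5.53 FPKM), Smad7 (5.05 FPKM) and Tgfbr1 (4.61 FPKM) made up the low end, with Tgfbr3 last. In the PLZF- pools Tgfbr2 was again at the top (41.7 ± 4.08 FPKM), Smad4 (29.0 ± 1.70 FPKM) and Smad3 (26.0 ± 8.36 FPKM) came next within the spread of Smad3, and Tgfb3 was last at 1.82 ± 0.411 FPKM (SD, n = 2 each). The FPKM of Smad4 adds a short row to a long one, and the larger row alone had 9.46 and 9.97 FPKM in the PLZF+ pools and 10.4 and 11.1 FPKM in the PLZF- pools, which would put Smad4 below both Tgfbr2 and Smad3 in either subset.

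Other genes of the pathway were read from 7 lists. Of 107 listed genes 57 reached the filter, and of these 3 rose (5.26%, against 2.55% of all tested genes) and 8 fell (14%, against 4.74%) in PLZF+ cells, while 46 did not pass. The median log2 fold change of the 57 was -0.41, beside -0.02 over all tested genes, and it is the same with the 3 genes that had a subset at 0 set to their bounds. Many, but not all, listed markers of innate lymphoid, natural killer and dendritic cells were lower in the PLZF+ pools too, by the values given above. The part of these markers in the results was not tested.

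**Figure D4:**
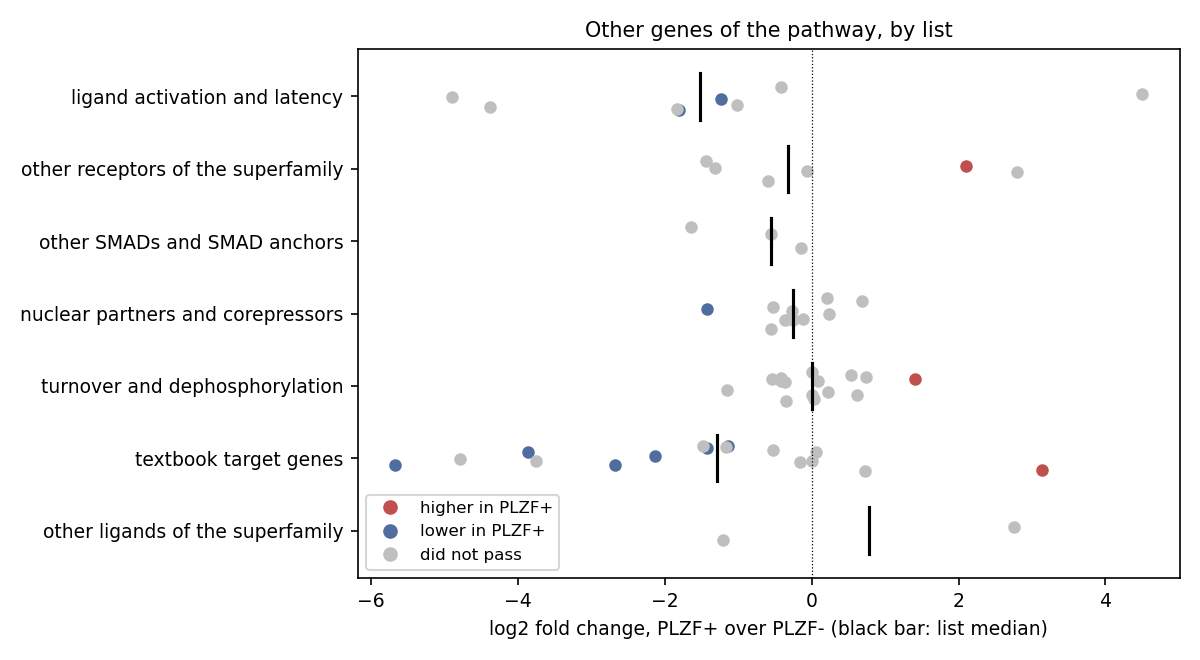
Log2 fold change, PLZF+ over PLZF- (x axis), of every tested gene in the 7 lists of other pathway genes, with black bars at the list medians. Red points rose and blue points fell at an adjusted p under 0.05 in limma, and grey points did not pass. The textbook target genes hold 6 of the falls, Skil among them, and the turnover list is centred at 0.01.

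Genes that release or process the ligand had 2 falls among 8 tested (25%, against 4.74% of all tested genes), and the other 6 did not pass. Itgav, the αv integrin subunit that helps to free latent TGF-β, had 112 and 145 normalized counts in the PLZF+ pools and 477 and 420 in the PLZF- pools (log2 fold change -1.80 ± 0.26, adjusted p = 0.00089, limma). It passed under 15 of 16 alternatives, and not without the trend and robust steps (0.12). Furin, the protease that cleaves the ligand precursor, had 268 and 246 normalized counts in the PLZF+ pools and 489 and 746 in the PLZF- pools (-1.23 ± 0.25, adjusted p = 0.0083), but was no longer called without A7 (0.091) or B7 (0.17), without the filter (0.055), in the FPKM table (0.099) or without the trend and robust steps (0.24). The integrin subunits Itgb1 (-1.01, adjusted p = 0.10) and Itgb3 (-0.41, adjusted p = 0.37) did not pass, although Itgb1 passed as lower with the column letter as a term (0.0064). Itgb5 went the other way, with 32.2 and 14.5 normalized counts in the PLZF+ pools and 0 in both PLZF- pools. It did not pass either (4.50, adjusted p = 0.18, limma). Ltbp1 to Ltbp4, Lrrc32, Itgb6 and Itgb8 did not reach the filter.

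Furin is the called gene whose product cleaves the ligand precursor, and the 250 bases before its upstream start are shown for that reason. The window is at chr7:80405437-80405686 on mm10 (GRCm38.p6), minus strand, from RefSeq, and it overlaps an exon of the antisense gene Gm44851. Capitals mark SMAD boxes as above.
Furin: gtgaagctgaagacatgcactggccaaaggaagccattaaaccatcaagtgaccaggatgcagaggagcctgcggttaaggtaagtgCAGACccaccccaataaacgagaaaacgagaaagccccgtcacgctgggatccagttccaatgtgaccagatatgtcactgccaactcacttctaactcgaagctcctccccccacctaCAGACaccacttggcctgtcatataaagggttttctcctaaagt
The box occurs 2 times, starting at positions -163 and -44, and 11.7% of all windows hold 2 or more. A second Furin window, further downstream, held 1. The match is a description of the letters and not evidence that a SMAD binds there.

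Among other receptors of the superfamily, 1 of 6 tested rose, against 2.55% of all tested genes. This was the locus of Nrp1, a co-receptor that can bind TGF-β, which also holds Mir1903. It had 186 and 267 normalized counts in the PLZF+ pools and 42.2 and 62.2 in the PLZF- pools (log2 fold change 2.10 ± 0.37, adjusted p = 0.0034, limma). It was not called without B7 (0.16), in the FPKM table (0.076) or without the trend and robust steps (0.11). The activin receptor gene Acvr2a (-0.59, adjusted p = 0.30) and the BMP receptor gene Bmpr2 (-1.31, adjusted p = 0.27) did not pass, although Bmpr2 passed without A6 (0.034). Of 3 tested SMADs and SMAD anchors 0 passed by limma, with 1 at an unadjusted p under 0.05 and 1 by voom, in each case Zfyve16, an endosomal SMAD anchor. Over all tested genes 11.7% had an unadjusted p under 0.05 as lower, and 7.31% passed by voom in either direction. Zfyve16 had 23.5 and 60.3 normalized counts in the PLZF+ pools and 157 and 91.5 in the PLZF- pools (-1.64, adjusted p = 0.077). It passed under 4 of 16 alternatives, by voom (0.038), with the column letter as a term (0.0039), with a pseudocount of 4 (0.0497) and at a minimum mean of 50 (0.042). Strap, a receptor-binding protein gene, did not pass either (-0.14, adjusted p = 0.85). Both tested ligands of other branches, Bmp4 (2.75, adjusted p = 0.29) and Bmp7 (-1.20, adjusted p = 0.38), did not pass.

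Nuclear partners and corepressors had 1 fall among 10 tested, against 4.74% of all tested genes. Skil, which encodes the SKI relative SnoN and is itself induced by TGF-β, had 269 and 158 normalized counts in the PLZF+ pools and 705 and 433 in the PLZF- pools (log2 fold change -1.42 ± 0.31, adjusted p = 0.012, limma). The subsets did not overlap, but the call was lost without B7 (0.28) or A6 (0.076), without the filter (0.088), in the FPKM table (0.15) and without the trend and robust steps (0.26). Ski did not pass (log2 fold change 0.22, adjusted p = 0.82, limma), and the difference between the 2 genes was not tested. The corepressor gene Ncor1 (0.21, adjusted p = 0.59) and the transcription factor gene Runx1 (-0.27, adjusted p = 0.60) did not pass. In the list of turnover and dephosphorylation 1 of 15 rose, against 2.55% of all tested genes. This was Fkbp1a, whose product FKBP12 binds the type I receptor and keeps it inactive. It had 201 and 253 normalized counts in the PLZF+ pools and 72.5 and 97.6 in the PLZF- pools (1.41 ± 0.33, adjusted p = 0.018). Its call was lost without A7 (0.12) or B7 (0.31), without the filter (0.070), in the FPKM table (0.082) and without the trend and robust steps (0.18). The deubiquitinase gene Usp15 (0.22, adjusted p = 0.66) and the ubiquitin ligase gene Nedd4 (0.09, adjusted p = 0.87) did not pass.

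Of 16 tested textbook target genes 6 fell (37.5%, against 4.74% of all tested genes) and 1 rose (6.25%, against 2.55%). The other 9 did not pass. The median of the 16 was -1.29 (log2), beside -0.02 over all tested genes. The list mixes genes that TGF-β raises with genes that it represses, so its count has no single direction of signalling. Skil belongs to it. Itga1, which shares its locus with Pelo and encodes the integrin CD49a, had 17.3 and 8.37 normalized counts in the PLZF+ pools and 268 and 133 in the PLZF- pools (-3.86 ± 0.54, adjusted p = 0.00064, limma). Over its 15 alternatives the log2 fold change of Itga1 ran from -4.36 to -2.73, and it was not called without the trend and robust steps (0.060). Id2, an inhibitor of E proteins, had 218 and 310.3 normalized counts in the PLZF+ pools and 542 and 610 in the PLZF- pools (-1.14 ± 0.24, adjusted p = 0.011). That call was lost without A7 (0.25) or B7 (0.060), without the filter (0.060), in the FPKM table (0.053) and without the trend and robust steps (0.26). Gzmb, which encodes granzyme B and is repressed by TGF-β in cytotoxic T cells, had 29.1 and 22.3 normalized counts in the PLZF+ pools and 174 and 162 in the PLZF- pools (-2.67 ± 0.42, adjusted p = 0.0014), and passed under all 16 alternatives. The chemokine gene Xcl1 had 0.619 (1 read) and 0 normalized counts in the PLZF+ pools and 77.6 and 52.4 in the PLZF- pools (adjusted p = 0.0094, 0.30 without A6, 0.071 without B6, 0.058 with a pseudocount of 0.25 and 0.083 by voom). Junb (-0.16, adjusted p = 0.69) and Tgif1 (-0.53, adjusted p = 0.43) did not pass.

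**Figure D5:**
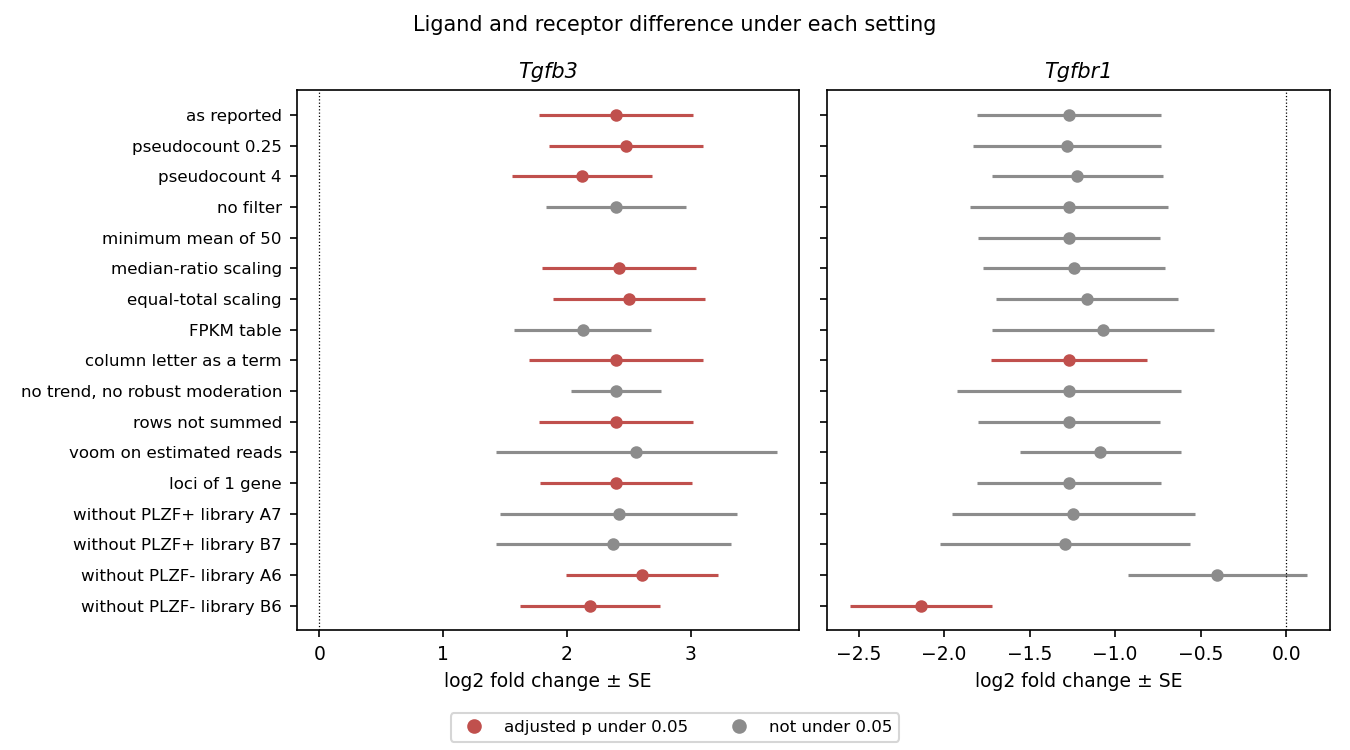
Log2 fold change with its standard error (x axis) of Tgfb3 and Tgfbr1, PLZF+ over PLZF-, as reported and under each alternative setting (y axis). Red points have an adjusted p under 0.05 and grey points do not, and Tgfb3 has no point at a minimum mean of 50. Tgfb3 stays between 2.12 and 2.61 while its call comes and goes, and Tgfbr1 moves from -2.14 without B6 to -0.40 without A6.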

How the data were processed

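Libraries were made by SMART-seq2, which amplifies whole transcripts from few cells. Per the submitters' processing notes, HISAT 0.1.6, SAMtools 1.2, Cufflinks 1.2 and Cuffdiff were used with mm10. Annotation and strand setting were not given in the sources used here. Deposited by the authors were normalized counts from Cuffnorm (a signal, not raw counts), FPKM from Cuffnorm and a Cuffdiff table with p-values and q-values, whose groups are unnamed and whose fold changes are unreadable at 1321 loci, so that directions came from the FPKM columns. The value of 1 read was taken as the smallest of a library's 5 most frequent values, and 93.8% to 95.2% of values under 50 reads lay within 0.05 of a whole multiple of it. Estimated reads are normalized counts divided by this value.

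Loci were named through GENCODE M21 and RefSeq synonyms where the gene overlapped the locus. The 1232 loci without a name (1.82% to 3.22% of a library's total) and Rn45s were left out. Genes that averaged 10 or more normalized counts were fitted with limma 3.58.1 in R 4.3.3 (trend, robust, two-sided) on log2(normalized count + 1), which understates the change of low genes. Adjusted p-values are Benjamini-Hochberg over all tested genes. The fit was tested on simulated data. Other tools were numpy 2.4.6 and pandas 2.3.3 in Python 3.11.15, with figures by matplotlib 3.10.9. Named list genes are those past the threshold (at most 6 a list by p) and the 2 others with the highest mean. Itgb5 is given besides these, as an integrin subunit of the opposite direction. Results of some listed genes are not reported here. Members, lists and tests were chosen with earlier results of these data known. Each library is a pool, so the spread in the fit is one between pools. Limma moderates the spread of each gene with that of other genes, so a p-value does not rest on that gene's pools alone. Alternatives were each library left out, the FPKM table, equal-total and median-ratio scaling, no filter, a mean of 50 or more, pseudocounts of 0.25 and 4, the column letter as a term, limma without trend and robust steps, rows not summed, the authors' q-values and, chosen after seeing the data, voom and loci of 1 gene.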

Additional observations from a re-analysis of the deposited data

How the results depend on the processing

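The count test on whole reads was not run, since too few values were whole. No paired analysis was possible because the columns carry no replicate number. A fit blocked on the column letter was run and is given here, but no label says that the letter pairs libraries. Voom and loci of 1 gene were settings chosen after seeing the data. With a library left out, the lone library is assumed to vary like the other subset. Of 155 values of the members under alternatives, 140 kept direction and side of the threshold, and 338 of 376 did for the named list genes. Most members were not called to begin with, and Tgfb3, the called one, kept its call under 9 of 15 alternatives.

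Members passing as higher numbered 0, against 1, without a filter, at a minimum mean of 50 (where Tgfb3 is not tested), by FPKM, without trend and robust steps, by voom and by the authors' q-values, and 0 to 1 with a library left out. Members passing as lower numbered 1, Tgfbr1, with the column letter, and 0 to 1 with a library left out. Of all genes 228 rose and 425 fell. The counts were 110 and 254 without a filter, 127 and 235 by FPKM, 416 and 643 with the column letter and 25 and 147 without trend and robust steps. With a library left out, 37 (without B7) to 445 (without B6) rose and 219 (without B7) to 417 (without B6) fell, with 47 and 274 without A7 and 241 and 244 without A6. List genes that rose numbered 1, against 3, by FPKM, without trend and robust steps and on loci of 1 gene, and 1 (without B7) to 4 with a library left out. Those that fell numbered 4, against 8, without a filter and by FPKM, 3 without trend and robust steps, and 4 (without B7) to 7 with a library left out, with 5 without A7.

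Signs turned in 7 values of members and 2 of list genes, none of which passed. Tgfbr2 was 0.0058 with equal totals and ranged from -0.26 to 0.061 with a library left out (0.061 without A7, 0.0023 without B6). In the same way Tgfbr3 ranged from -3.24 to 1.66, its value without B7. Smad2 ranged from -0.077, without A6, to 1.04, and Smad7 from -0.60, without A6, to 1.08, with -0.29 without A7. Runx1 ranged from -0.66 to 0.12, without A6, and Junb from -0.39 to 0.077, without B7. Equal totals moved the median of all tested genes by 0.105 (log2). Depth limits the low members most, since 1 read was worth 0.619 (A7) and 0.558 (B7) normalized counts in PLZF+ pools and 1.69 (A6) and 1.22 (B6) in PLZF- pools.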
